A study of Mus musculus with 30 samples.

Results

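The 35 genes described here act in the G2 phase, mitosis and cytokinesis. They were chosen by name for what their proteins do, and all 35 were found in each table of 31854 genes (CALM/AF10 time course), 34406 genes (GMP time course) and 32527 genes (lines). They fall into 7 groups by role: 6 genes of the cyclin and CDK1 switch, 4 mitotic kinases, 7 genes of the spindle checkpoint and its target, the anaphase-promoting complex, 6 centromere and chromosomal passenger genes, 6 spindle motor and assembly genes, 5 genes of the midzone and cytokinesis, and 1 gene of chromosome decatenation. RNA of mouse cells of the C57BL/6 strain was sequenced in 30 samples, in 10 groups of 3. One experiment followed CALM/AF10 cells, an acute myeloid leukemia (AML) line that carries the CALM-AF10 fusion, beside GMP, which are normal granulocyte-macrophage progenitors. Both were taken before treatment (0 h) and after 6 h and 10 h of RG3039, an inhibitor of the mRNA decapping scavenger enzyme Dcps, at 1 µM. The other experiment profiled 4 AML lines without treatment, lines 1 and 2 of CALM/AF10 and lines 1 and 2 of MLL/AF9, which carry the MLL-AF9 fusion. No untreated group stood beside the treated ones at 6 h or 10 h, so time in culture and the inhibitor cannot be told apart. Whether the 3 samples of a group were separate cultures is not given in the labels, so p-values measure the spread between these samples, which may be technical.

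A cell enters mitosis when cyclin B and the kinase CDK1, freed of its inhibitory phosphates by CDC25 phosphatases, phosphorylate many proteins at once. Polo-like and Aurora kinases then build the spindle, the spindle checkpoint holds the anaphase-promoting complex back until every kinetochore is attached, and the complex, with its activator CDC20, marks cyclin B for destruction. In human and mouse cells the transcripts of these genes climb together in G2, driven by the MuvB complex with B-MYB and FOXM1, which acts through a promoter element called CHR, and by NF-Y, which binds CCAAT boxes. In a population of cells their level therefore follows how many cells are in G2 and mitosis, and in proliferating myeloid progenitors they are among the plainest marks of division.

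Promoter windows of 250 bases before to 50 bases after the annotated start were held for 28 of the 35 genes in the RefSeq table of mouse build GRCm38.p6, and for Dlgap5, Incenp, Ccna2, Kif20a, Aurkb, Cdc25c and Tpx2 none was matched. Bub3, Ect2 and Prc1 had 2 windows each. Searched on both strands, the CCAAT letters stood in a window of 23 of the 28 genes (82.1%). By window, they stood in 26 of 31, against 37.4% of all 32851 windows in the table. The CHR letters, searched as TTTGAA or TTCGAA, stood in a window of 22 of the 28 genes (78.6%). By window, they stood in 25 of 31, against 19.2% of all windows. In the 150 bases before the start alone, CHR letters stood for 9 of 28 genes (32.1%) and in 10 of 31 windows, against 9.70% of all. CCAAT stood there for 23 of 28 genes and in 25 of 31 windows, against 24.5%. Matches overlapped in 2 windows: a CHR and a CCAAT match shared 1 base in Cdca8, and 2 CCAAT matches on opposite strands shared 2 bases in Ube2c. Anln, Birc5, Kif2c, Mad2l1 and Nusap1 held no CCAAT match, and Birc5, Ccnb1, Cenpe, Mad2l1, Nek2 and Nusap1 no CHR match in these windows. A match is a description of letters and not a bound site. The 6 stretches that follow run from 110 bases before the start to the first 10 bases from it, 5′ to 3′ on the strand of the gene, with CCAAT (or ATTGG, the same motif on the other strand) and TTTGAA (or TTCAAA) in capitals. They are shown because Ccnb1 and Cdc20 rose and Ccnb2, Kif11 and Nusap1 fell in GMP at 6 h, with Cdk1, the partner of the cyclins, which did not pass the test. Ccnb1 lies at chr13:100786477-100786596 on the minus strand, Cdc20 at chr4:118437334-118437453 (minus), Cdk1 at chr10:69352903-69353022 (minus), Ccnb2 at chr9:70421545-70421664 (minus), Kif11 at chr19:37376272-37376391 (plus) and Nusap1 at chr2:119618188-119618307 (plus).
Ccnb1: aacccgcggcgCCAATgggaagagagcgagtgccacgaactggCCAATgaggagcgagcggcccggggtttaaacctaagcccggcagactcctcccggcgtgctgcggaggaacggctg
Cdc20: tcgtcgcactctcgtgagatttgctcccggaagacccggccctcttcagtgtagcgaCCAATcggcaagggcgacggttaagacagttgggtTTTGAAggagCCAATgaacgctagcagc
Cdk1: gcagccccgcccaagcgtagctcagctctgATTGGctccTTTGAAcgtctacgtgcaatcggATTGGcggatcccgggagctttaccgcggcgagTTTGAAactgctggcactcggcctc
Ccnb2: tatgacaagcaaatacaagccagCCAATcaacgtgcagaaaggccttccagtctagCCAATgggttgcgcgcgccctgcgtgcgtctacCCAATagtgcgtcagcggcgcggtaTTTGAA
Kif11: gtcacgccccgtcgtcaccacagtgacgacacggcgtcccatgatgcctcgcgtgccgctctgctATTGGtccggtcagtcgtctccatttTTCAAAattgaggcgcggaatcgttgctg
Nusap1: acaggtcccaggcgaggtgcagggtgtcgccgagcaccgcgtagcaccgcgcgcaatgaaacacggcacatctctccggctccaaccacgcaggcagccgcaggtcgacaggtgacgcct

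In the Ccnb1 window the CCAAT boxes began 32 bases apart. In Ccnb2, the other B-type cyclin, 3 boxes began 33 and 33 bases apart, with TTTGAA just inside the transcript. Cdk1 held its pair 32 bases apart on the other strand and TTTGAA at 71 and 15 bases before the start. The Nusap1 stretch held neither motif.

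**Figure D1:**
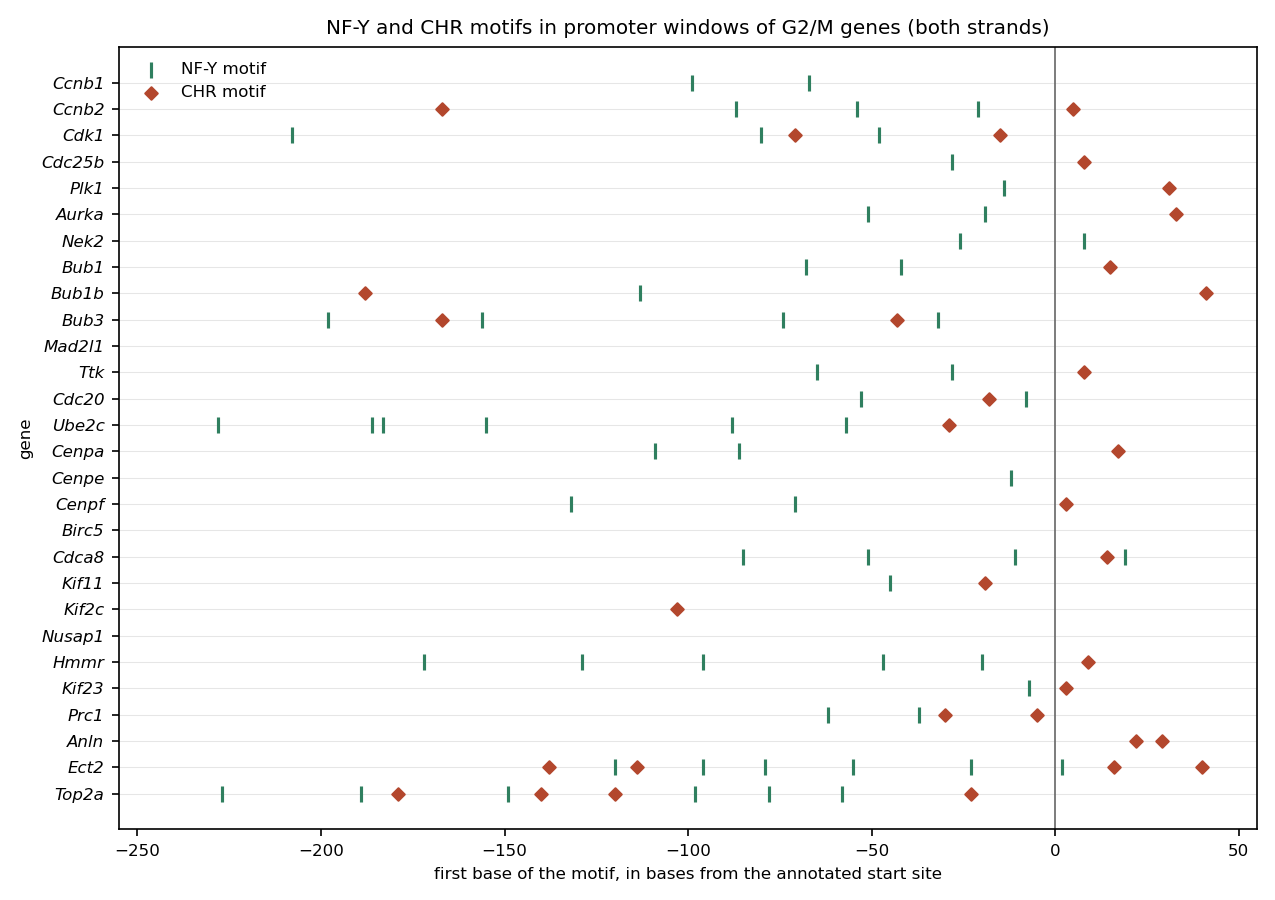
Positions of the NF-Y motif (ticks) and the CHR motif (diamonds) relative to the annotated start, in bases, in the promoter windows of 28 genes. Bub3, Ect2 and Prc1 have more than 1 annotated start, so a site in more than 1 window is drawn again for each start. 23 genes carry at least 1 NF-Y motif and 22 at least 1 CHR motif.

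The tables of the time course give TPM, a level scaled both for transcript length and for the size of the library, and each column adds up to the same total, so their depth is unknown. The line libraries held 8739673 to 25194822 estimated reads. Genes that mark myeloid progenitors summed to 20336 to 21298 TPM in GMP at 0 h, 12370 to 12975 at 6 h and 10153 to 10671 at 10 h, with all 8 of the list at 1 TPM or more at 0 h. The 8 macrophage markers summed to 66.9 to 78.6 TPM at 0 h, with Marco at 0, to 104 to 113 at 6 h, with C1qa at 0, and to 108 to 115 at 10 h. The 7 mast cell and basophil markers summed to 95.5 to 114 TPM at 0 h, 131 to 162 at 6 h and 153 to 158 at 10 h, with Mcpt4 at 0 throughout and Tpsb2 at 0 from 6 h. The 8 B and T cell markers summed to 34.3 to 39.6 TPM at 0 h, 28.7 to 35.3 at 6 h and 23.4 to 24.7 at 10 h, with Cd3g at 0 at 10 h. Only part of these lists reached a mean of 1 TPM: 3, 3 and 4 macrophage markers at 0, 6 and 10 h. For mast cell and basophil markers the counts were 5, 4 and 4, and for B and T cell markers 5, 4 and 4. The progenitor, macrophage, and mast cell and basophil sums in GMP lay apart from those of 0 h at both 6 h and 10 h. The B and T cell sums overlapped those of 0 h at 6 h and lay below them at 10 h. The part of these lists in the changes of the mitotic genes in GMP described next was not tested. Neutrophil markers in GMP summed to 8739 to 11357, 9234 to 9527 and 10233 to 10780 TPM at the 3 times. Stromal and endothelial markers summed to 23.6 to 27.1, 26.5 to 32.3 and 23.0 to 24.9 TPM. For both, the 0 h samples overlapped those of 6 h and of 10 h. Erythroid markers summed to 17.3 to 21.4, 14.2 to 21.7 and 14.2 to 15.9 TPM. They overlapped 0 h at 6 h and lay below it at 10 h, and their part was not tested either. In CALM/AF10 cells the progenitor markers summed to 6387 to 6883 TPM at 0 h, 6438 to 6603 at 6 h and 7059 to 7316 at 10 h, and the macrophage markers to 865 to 911, 856 to 890 and 948 to 1008. For both lists the 10 h samples lay above all others, and their part in the 10 h calls was not tested. The 8 neutrophil markers summed to 60611 to 67142 TPM over the 3 times.

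Before treatment the 35 genes together made up 922 to 946 TPM in CALM/AF10 cells and 1315 to 1430 TPM in GMP. In both, Ube2c, the E2 enzyme that starts ubiquitin chains for the anaphase-promoting complex, was the highest, with 206 ± 8.29 TPM in CALM/AF10 cells and 282 ± 24.8 in GMP (SD, n = 3). The lowest were Cdc25c (3.27 TPM) in CALM/AF10 cells and Cdc25b (4.28 TPM) in GMP, both phosphatases that activate CDK1. The 2 cell types stand in separate tables that may have been made separately, so no test was run between their untreated levels. Side by side, the 3 GMP samples were all higher than the 3 CALM/AF10 samples for 30 of the 35 genes (background over all genes 40.9%). All 3 were lower for Cdc25b (background for lower 29.0%), and the samples overlapped for Ccnb1, Plk1, Cenpf and Dlgap5. The median log2 ratio of GMP to CALM/AF10 levels was 0.62 over the members and 0.14 over all genes. As the samples are bulk RNA, fewer dividing cells and less RNA per dividing cell cannot be told apart here or in what follows.

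In GMP the mitotic genes divided within 6 h of RG3039. Ccnb1, Kif20a, Aurka, Plk1, Ccna2, Cdc20 and Tpx2 rose, and Nusap1, Ect2, Incenp, Kif11, Ccnb2, Mad2l1 and Cdca8 fell, at an adjusted p under 0.05 in limma on log2(TPM + 1). Over all 14246 genes tested, 44.0% were called in this comparison, 24.1% higher and 19.9% lower, so the 14 of 35 members called are near the background. The median log2 change was -0.06 over the members and -0.02 over all genes. Changes below are differences on the log2(TPM + 1) scale with their standard error (SE), which understates the change of low genes, and adjusted p-values are Benjamini-Hochberg values across every gene tested.

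The B-type cyclins moved apart. Ccnb1, the cyclin B that partners CDK1 for mitotic entry, was at 16.1, 17.7 and 18.7 TPM at 0 h and at 27.6, 25.7 and 29.1 TPM at 6 h. Every treated sample was above every untreated one, and the change was 0.62 (SE 0.08, limma adjusted p = 0.000219). Ccnb2, its relative, was at 61.7, 62.6 and 56.3 TPM at 0 h and at 50.1, 49.5 and 39.1 at 6 h. Here every treated sample was below every untreated one, and the change was -0.38 (SE 0.10, limma adjusted p = 0.0113). Ccna2, the cyclin A of S and G2 phase, rose by 0.27 (SE 0.05, limma adjusted p = 0.0035), from 80.7, 72.1 and 77.3 TPM to 91.3, 95.7 and 90.4. Cdk1 itself was at 32.9, 33.4 and 29.4 TPM at 0 h and at 37.2, 35.8 and 31.6 TPM at 6 h. Its samples overlapped, and the difference of 0.12 did not pass the test (limma adjusted p = 0.275). Cdc25b and Cdc25c did not pass either.

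Among the mitotic kinases, Aurka, which matures centrosomes and the spindle poles, was at 42.5, 42.7 and 36.7 TPM at 0 h and between 50.03 and 56.4 TPM at 6 h. The groups did not overlap, and the change was 0.37 (SE 0.07, limma adjusted p = 0.00369). Plk1, the polo kinase of mitotic entry and exit, was at 50.5, 50.3 and 54.2 TPM at 0 h and within 66.1 to 66.8 TPM in the 3 samples at 6 h. It rose by 0.36 (SE 0.08, limma adjusted p = 0.00515), again with no overlap. Tpx2, the activator of Aurora A on microtubules, rose by 0.22 (SE 0.06, limma adjusted p = 0.0136). Aurkb, the passenger complex kinase, and Nek2, which separates centrosomes, did not pass the test.

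Of the checkpoint and anaphase-promoting complex genes, Cdc20, the activator of the complex, went from 73.8, 69.0 and 76.4 TPM to 79.8, 87.5 and 88.0 TPM, a rise of 0.22 (SE 0.06, limma adjusted p = 0.0187). The call of Cdc20 was lost without 0 h sample b, 6 h sample b or 6 h sample c (adjusted p up to 0.0628). Mad2l1, the checkpoint protein that inhibits CDC20, fell by 0.30 (SE 0.07, limma adjusted p = 0.00463) to 33.1, 32.2 and 35.0 TPM, below the 39.5 to 44.6 TPM of the untreated samples. Bub1, Bub1b, Bub3 and Ttk, the other checkpoint genes, and Ube2c did not pass the test.

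Among the passenger and spindle genes the calls were falls, Tpx2 apart. Incenp, the scaffold that holds Aurora B in the chromosomal passenger complex, was at 53.7, 56.4 and 53.6 TPM at 0 h and at 39.1, 39.1 and 38.8 TPM at 6 h. The treated samples lay close together, all below the untreated ones, and the change was -0.47 (SE 0.05, limma adjusted p = 6.29e-05). Cdca8, which codes for borealin of the same complex, fell by 0.23 (SE 0.08, limma adjusted p = 0.0423), but its call was lost in every fit without 1 sample other than 0 h sample c (adjusted p up to 0.131). Nusap1, which bundles spindle microtubules near chromatin, was at 33.7, 30.4 and 28.6 TPM at 0 h and at 19.1, 16.8 and 16.3 TPM at 6 h. That change of -0.80 (SE 0.09, limma adjusted p = 9.27e-05) was the largest fall among the 35. Kif11, the motor that pushes the spindle poles apart, fell by 0.47 (SE 0.09, limma adjusted p = 0.002), from 13.6 to 15.3 TPM at 0 h to 10.2 to 10.6 TPM at 6 h. Cenpa, the centromeric histone, Cenpe, Cenpf, Birc5, Kif2c, Hmmr and Dlgap5 did not pass.

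At the midzone, Kif20a, a kinesin needed for cytokinesis, was at 17.7, 18.5 and 22.7 TPM at 0 h and at 29.3, 27.2 and 30.6 TPM at 6 h. All treated samples were above the untreated ones, and the change was 0.55 (SE 0.09, limma adjusted p = 0.00131). Ect2, the exchange factor that activates RhoA at the cleavage furrow, fell by 0.58 (SE 0.17, limma adjusted p = 0.0228), from between 9.75 and 15.8 TPM to 7.27, 9.44 and 7.16, with the lowest untreated sample just above the highest treated one. Without 0 h sample b, 6 h sample a or 6 h sample c its call was lost (adjusted p up to 0.0705). Kif23, Prc1 and Anln, which build and anchor the midzone and contractile ring, and Top2a, the topoisomerase that untangles sister chromatids, did not pass, with -0.09 for Top2a (limma adjusted p = 0.166). The changes of the 21 genes not called ran from -0.24 to 0.15. After quantile normalization 4 members were called higher and 10 lower, and after median centring 6 and 7, beside the 7 and 7 of the deposited values. The shares of all genes called after these scalings are not given here. The calls of Ccna2, Tpx2 and Cdc20 as higher were lost with quantile normalization, and that of Cdc20 also with median centring.

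**Figure D2:**
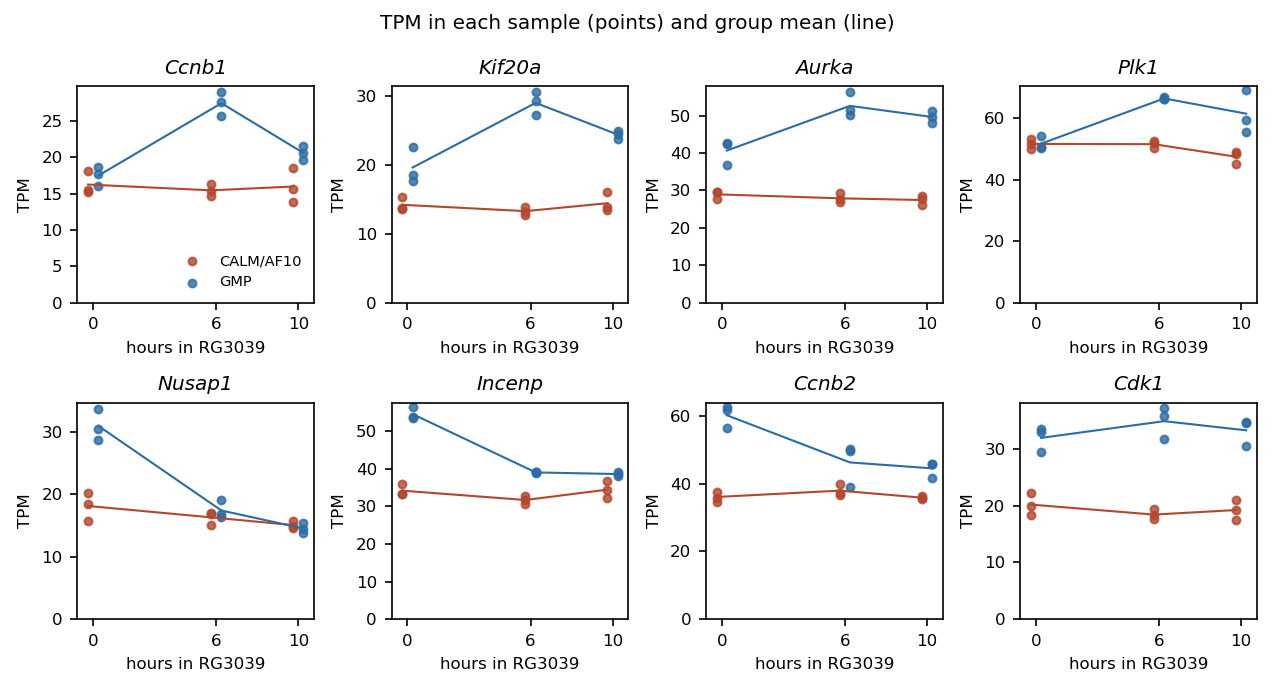
TPM of 8 genes in each sample at 0, 6 and 10 h of RG3039, in GMP and in CALM/AF10 cells, with points for the 3 samples of a group and lines through the group means (TPM axes start at 0). In GMP, Ccnb1 and Kif20a are highest at 6 h and lower again at 10 h, Aurka and Plk1 stay above 0 h, and Nusap1, Incenp and Ccnb2 stay below it, while the CALM/AF10 means move less.

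At 10 h more of the calls in GMP were falls: 4 members were called higher and 12 lower (45.7% of the 35), with a background of 45.1% of all genes called, 23.7% higher and 21.5% lower. The median log2 change was -0.19 over the members and -0.03 over all genes. The 6 h and 10 h comparisons share their 0 h samples, so their values are set side by side and are not independent. Nusap1 was at 13.8, 14.4 and 15.3 TPM at 10 h, with a change from 0 h of -1.04 (SE 0.09, limma adjusted p = 1.59e-05). Incenp was at 38.6, 38.1 and 39.1 TPM, with a change of -0.49 (SE 0.05, limma adjusted p = 4.43e-05). Both had all 10 h samples below all 0 h samples. Ccnb2 (-0.43), Kif11 (-0.39) and Mad2l1 (-0.28) were also lower at 10 h, with limma adjusted p-values of 0.00605, 0.00498 and 0.00681.

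Several genes that had not passed at 6 h were lower at 10 h. Kif23, a kinesin of the centralspindlin complex, went from a mean of 19.4 ± 0.854 TPM at 0 h to 16.8 ± 1.46 at 6 h and 13.2 ± 0.708 at 10 h (SD, n = 3), with a change from 0 h to 10 h of -0.53 (SE 0.08, limma adjusted p = 0.000669). Cenpa was at 70.2 ± 6.18, 68.7 ± 5.51 and 51.0 ± 2.64 TPM at the 3 times, and its change to 10 h was -0.45 (SE 0.08, limma adjusted p = 0.00173). Top2a fell by 0.27 (SE 0.05, limma adjusted p = 0.00203), from 54.0 to 56.0 TPM in the untreated samples to 44.7 to 46.0 TPM. Dlgap5, which stabilises kinetochore fibres, fell by 0.33 (limma adjusted p = 0.0263), Nek2 by 0.27 (0.0353) and Hmmr, a spindle-pole protein, by 0.23 (0.0396). The call of Dlgap5 was lost without 0 h sample b, 10 h sample a or 10 h sample b (adjusted p up to 0.0954). That of Nek2 was lost without 0 h samples b or c or 10 h samples a or c (up to 0.122), and that of Hmmr without 0 h samples a or c or any 10 h sample (up to 0.113).

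The genes that had risen were nearer to their starting levels. Ccnb1 was at 20.6, 19.6 and 21.6 TPM at 10 h, still above the untreated samples, by 0.23 (SE 0.08, limma adjusted p = 0.0411). Kif20a (0.31, SE 0.09, limma adjusted p = 0.0232), Aurka (0.28, SE 0.07, limma adjusted p = 0.0125) and Plk1 (0.24, SE 0.08, limma adjusted p = 0.0317) also remained called higher. The call of Ccnb1 was lost without 0 h samples a or b, 6 h sample a or any 10 h sample (adjusted p up to 0.129). That of Kif20a was lost without 0 h samples a or b or 10 h samples b or c (up to 0.0774), and that of Plk1 without 0 h or 10 h samples a or b (up to 0.0885). Of these 4 genes Aurka kept its call in every fit without 1 sample. Cdc20 was called lower at 10 h, at 63.5, 61.7 and 66.3 TPM (-0.19, SE 0.06, limma adjusted p = 0.03), below all 3 untreated samples. Its call was lost without 0 h samples a or c or 10 h samples a or b (adjusted p up to 0.0972). Without 10 h sample a or 10 h sample b, 10 members were called in all. After quantile normalization no member was called higher and 12 were called lower, so the higher calls at 10 h depend on the scaling. The share of all genes called after this scaling is not given here.

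Measured directly between 6 h and 10 h, 5 of the 35 genes were called lower and none higher (14.3%), with a background of 7.08% of genes called, 3.87% lower and 3.21% higher. At an unadjusted p under 0.05, 15 members differed. The 5 were Cenpa (-0.42, limma adjusted p = 0.0191), Cdc20 (-0.41, 0.00613), Ccnb1 (-0.40, 0.0204), Cenpe, the kinetochore motor (-0.33, 0.038), and Kif23 (-0.32, 0.0467). Leaving out 1 sample left 1 to 5 of these calls: 3 without 0 h sample a or 6 h sample c, 2 without 10 h sample b, 6 h sample a or 6 h sample b, and 1 without 10 h sample a or 10 h sample c. Of the 26 genes of DNA replication and the G1/S step, listed for comparison, 15 were called higher between 6 h and 10 h and 0 lower.

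In CALM/AF10 cells the same genes moved little. At 6 h no member passed the test in limma (background 12.6% of 12815 genes tested, 5.44% higher and 7.14% lower), and 2 had an unadjusted p under 0.05. The 35 changes ran from -0.20 to 0.18, with an SD over genes of 0.09, where the SD in GMP at 6 h was 0.30. Ccnb1 was at 18.1, 15.2 and 15.5 TPM at 0 h and at 14.7, 15.3 and 16.4 TPM at 6 h, with overlapping samples and a difference of -0.07 (limma adjusted p = 0.756). Top2a was at 31.3, 32.0 and 31.1 TPM at 0 h and at 27.0, 28.3 and 26.7 TPM at 6 h. All its treated samples were lower, but the change of -0.20 did not pass (limma adjusted p = 0.0795). Fitted with the 0 h and 6 h samples only, Top2a did pass, at an adjusted p of 0.0283, and without 10 h sample c it was the 1 member called (0.0238).

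At 10 h, 3 of the 35 members were called in CALM/AF10 cells, all lower (8.57% against a background of 19.2%, 10.5% higher and 8.64% lower), and the members' median was -0.04 against 0.01 over all genes. Ube2c was at 216, 200 and 204 TPM at 0 h, at 202, 200 and 205 TPM at 6 h, and at 170, 173 and 163 TPM at 10 h. The 10 h samples were all below the other 6, and the change from 0 h was -0.29 (SE 0.04, limma adjusted p = 0.00128). In GMP the mean of Ube2c was 282 ± 24.8 TPM at 0 h, 312 ± 14.2 at 6 h and 265 ± 7.29 at 10 h (SD, n = 3). Anln, the anillin scaffold of the contractile ring, fell by 0.21 (SE 0.06, limma adjusted p = 0.0412) and Cdc20 by 0.21 (SE 0.06, limma adjusted p = 0.046). The call of Anln was lost without any sample but 6 h sample c or 10 h sample c (adjusted p up to 0.112), and that of Cdc20 without any but 0 h sample b or 10 h sample b (up to 0.143). In all, 1 member was called without 0 h sample a, 0 h sample c, 6 h sample a or 6 h sample b. The changes of the 32 genes not called ran from -0.25 to 0.16. From 6 h to 10 h the change in Ube2c was called (-0.26, limma adjusted p = 0.0156, background 2.93%, 2.18% higher and 0.749% lower), and it was lost without 6 h sample a, b or c, with an adjusted p up to 0.0709.

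**Figure D3:**
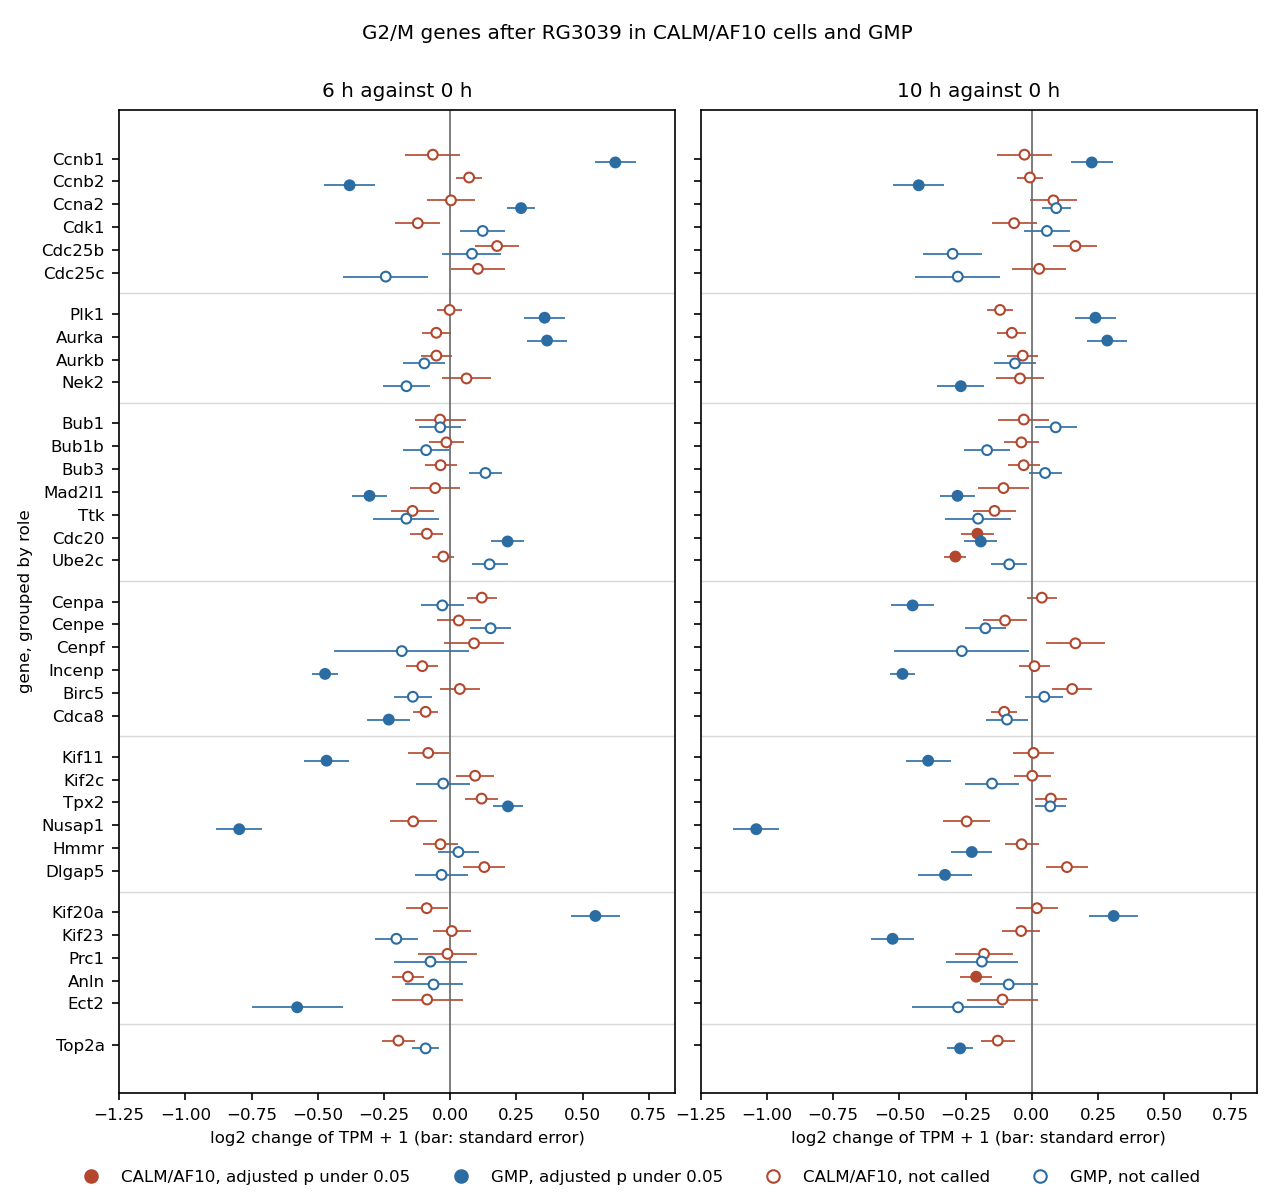
Change of each of the 35 genes on the log2(TPM + 1) scale at 6 h and 10 h of RG3039, by role, in GMP and in CALM/AF10 cells. Bars are standard errors and filled points passed the limma test at an adjusted p under 0.05. GMP changes run from -1.04 (Nusap1 at 10 h) to 0.62 (Ccnb1 at 6 h), and CALM/AF10 changes lie within -0.29 to 0.18.

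The difference of the changes, CALM/AF10 minus GMP, was tested in a joint fit of the GMP and CALM/AF10 values of 14047 genes. At 6 h it was called for 9 members (25.7%), 4 positive and 5 negative, with a background of 38.5%, 16.2% positive and 22.2% negative. At 10 h it was called for 10 members (28.6%), 8 positive and 2 negative, with a background of 38.7%, 18.5% positive and 20.2% negative. The members' median difference was 0.06 at 6 h and 0.11 at 10 h, against -0.01 and 0.03 over all genes. Ccnb1 had the most negative difference at 6 h, -0.69 (SE 0.13, limma adjusted p = 0.00076), from its rise in GMP and a change of -0.07 in CALM/AF10 cells. Nusap1 had the most positive one at both times, 0.66 (SE 0.13, limma adjusted p = 0.000653) and 0.79 (SE 0.13, limma adjusted p = 0.000116). In CALM/AF10 cells Nusap1 was at 20.2, 15.7 and 18.4 TPM at 0 h, 15.0, 16.8 and 17.0 at 6 h and 14.5, 14.9 and 15.7 at 10 h, so its level in treated GMP came close to that of the CALM/AF10 cells. Incenp was at 33.4, 36.0 and 33.2 TPM in untreated CALM/AF10 cells, and its difference was 0.37 (SE 0.07, limma adjusted p = 0.000812) at 6 h and 0.50 (SE 0.07, limma adjusted p = 5.13e-05) at 10 h. For Cdk1 (-0.25 and -0.12) and Top2a (-0.10 and 0.14) the difference did not pass at either time. After quantile normalization 8 members were positive and 3 negative at 6 h, and 10 and 1 at 10 h. After median centring the counts were 5 and 4, and 8 and 3. Shares of all genes called after these scalings are not given here.

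By the call at 6 h in GMP, the promoter letters fell as follows. Of the 7 genes that rose, 4 had a window, 3 with a CHR match and 4 with a CCAAT match. Of the 7 that fell, 6 had a window, 4 with a CHR match and 4 with a CCAAT match. Of the 21 not called, 18 had a window, 15 with each motif. These counts are too few to set the groups apart and no test was run.

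The other genes of the same program, 113 in 7 lists, also went both ways in GMP: 21 rose and 44 fell at 6 h (57.5%, median -0.19), against a background of 44.0%. At 10 h, 17 rose and 36 fell (46.9%), near the background of 45.1%. The clearest list by counts was condensin and cohesin control, the machinery that compacts and holds chromosomes, with 8 of 10 genes lower and none higher at 6 h (median -0.48). Ncapd2, a condensin subunit, went from a mean of 89.3 to 52.6 TPM (-0.75, limma adjusted p = 3.74e-05), and Ncapg2 changed by -0.71. Kinetochore and other centromere genes had 3 higher and 12 lower of 32, among them Cenpu (-0.83) and Nsl1 (-0.82). The APC/C list, with its inhibitors and separase, went the other way, with 8 higher and 4 lower of 18. Anapc11, the catalytic RING subunit, went from 51.6 to 82.7 TPM (0.67).

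Of 12 regulators in the MuvB, B-MYB and FOXM1 list, 2 rose and 7 fell at 6 h in GMP, among them Rbl2 (-0.70), which codes for the pocket protein p130, Rbbp4 (-0.64), for a histone-binding subunit of MuvB, and Rbl1 (-0.57), for the pocket protein p107. For all list counts at 6 h the background was 24.1% of all genes higher and 19.9% lower. At 10 h the 2 transcription factors moved apart. Foxm1 went from 36.4 to 22.5 TPM (-0.67, limma adjusted p = 7.83e-05) and Mybl2, which codes for B-MYB, from 55.4 to 88.5 TPM (0.67, limma adjusted p = 7.14e-05). The mitotic entry list had 3 higher and 4 lower of 12 at 6 h, with Cks2, a CDK-binding subunit, from 183 to 101 TPM (-0.85, limma adjusted p = 2.16e-05). Pkmyt1, a kinase that restrains CDK1, changed by -0.80, and Gtse1 by 0.64. Spindle and centrosome genes had 3 higher and 6 lower of 21, with Troap at 0.78 and Kif15 at -0.56, and cytokinesis genes 2 and 3 of 8, with Iqgap3 at -0.88.

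At 10 h in GMP the same lists gave 2 higher and 4 lower regulators, 3 and 3 mitotic entry genes, 4 and 2 APC/C genes, 3 and 10 kinetochore genes, 0 and 6 condensin and cohesin genes, 3 and 8 spindle genes and 2 and 3 cytokinesis genes. The background at 10 h was 45.1% of all genes, 23.7% higher and 21.5% lower. Mki67, the proliferation marker that coats mitotic chromosomes, went from 156 to 109 TPM (-0.51, limma adjusted p = 3.15e-05). Of the 26 DNA replication and G1/S comparison genes, 2 rose and 10 fell at 6 h, and 9 rose and 2 fell at 10 h (median 0.10). At 6 h the background was 24.1% higher and 19.9% lower. Ccne2, cyclin E2 of the G1/S step, went from 9.43 to 22.2 TPM at 10 h (1.16, limma adjusted p = 4.69e-06) and Rrm2, a ribonucleotide reductase subunit, from 52.9 to 85.6 TPM (0.68).

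In CALM/AF10 cells these lists gave few calls. Of 112 other program genes tested, 2 rose and 2 fell at 6 h (background 12.6%), and 8 rose and 3 fell at 10 h (background 19.2%). Those at 6 h were the APC/C subunits Cdc16 (0.47) and Anapc11 (0.42), and the regulators Tfdp1, a partner of E2F (-0.38, limma adjusted p = 0.00082), and Mybl2 (-0.27, limma adjusted p = 0.0137). Of the 26 DNA replication and G1/S genes 5 fell at 6 h (background for lower 7.14%), and from 6 h to 10 h 6 rose and 0 fell (background for higher 2.18%). For condensin and cohesin control the difference CALM/AF10 minus GMP was called positive for 7 of 10 genes and negative for 0 at each time. The background was 16.2% positive and 22.2% negative at 6 h, and 18.5% and 20.2% at 10 h. This list was singled out above by its GMP values, which also enter the difference.

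The authors' deposited tables of splice junctions list junctions whose share of use (percent spliced in, PSI) was called higher after treatment, as group means with no SD. They list 486 junctions for CALM/AF10 cells at 6 h, 689 at 10 h, and 291 and 400 for GMP at the same times. Members have 1, 0, 2 and 2 of these entries. The clearest is in Incenp in GMP. In the authors' deposited table, a junction at chr19:9878428-9883698 (mm10, minus strand) went from a PSI of 42 to 67 at 6 h, with a log2 ratio of 1.52, a q-value of 7.68e-09 and mean raw counts of 65 and 69. The authors' deposited table for 10 h gives a PSI of 42 and 61, a log2 ratio of 1.10, a q-value of 0.00778 and mean raw counts of 65 and 94. In the GENCODE M21 annotation this junction passes over a coding exon of 12 bases at chr19:9883192-9883203, which is exon 10 of the transcript that holds it. The joined exon ends read as follows on the strand of the gene, with the 12-base exon in capitals.
Incenp with the exon: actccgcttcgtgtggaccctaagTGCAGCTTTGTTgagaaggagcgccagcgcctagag
Incenp without the exon: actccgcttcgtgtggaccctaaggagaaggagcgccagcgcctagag

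As the exon is a multiple of 3 bases long, both forms keep the reading frame, and the share without the exon was the one called higher while the level of Incenp was lower. A second Incenp junction in the authors' deposited table for 6 h, chr19:9878428-9883686, went from a PSI of 0 to 8 with mean raw counts of 0 and 10 (q-value 4.47e-06). It is not in GENCODE M21 and its donor lies 12 bases further into the intron. In the authors' deposited table for 10 h, Cdca8 has a junction at chr4:124936728-124936816, within its first exon on the 5′ UTR side of the start codon, that went from a PSI of 1 to 5 (q-value 0.00161, mean raw counts 8 and 40). The entry named for Plk1 and Dctn5 together in the authors' deposited table of CALM/AF10 cells at 6 h, chr7:122133181-122134168, lies between exons 1 and 2 of Dctn5, 25271 bases before Plk1, and is no measurement of Plk1.

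Library composition differed between lines of the same fusion. In CALM/AF10 line 1 mitochondrial reads were 7.80 to 7.82%, the transcript Gm10800 took 9736 to 11030 TPM and 8 erythroid markers summed to 835 to 1038 TPM, where line 2 had 3.93 to 4.02%, 1188 to 1423 TPM and 121 to 132 TPM. The part of these in the line differences was not tested.

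The lines were compared by estimated reads, given as CPM (each library's reads scaled to the same total after TMM normalization). In edgeR's quasi-likelihood test the SE given is the size of the log2 change divided by the square root of F. Between CALM/AF10 line 2 and line 1, 5 members were called higher and 1 lower (17.1%), below a background of 32.0% of 17052 genes, 20.2% higher and 11.9% lower. Without a test, 9 members were higher in every line 2 library on the CPM scale and 2 lower (background 28.7% and 15.5%), and 12 and 2 on the TPM scale (23.5% and 13.8%). Kif20a was at 56.7, 64.7 and 51.6 CPM in line 1 and at 85.0, 90.5 and 87.9 CPM in line 2, without overlap, a difference of 0.56 (SE 0.08, edgeR adjusted p = 3.89e-05). Ube2c was lower in line 2 by -0.29 (SE 0.07, edgeR adjusted p = 0.0031). Ccnb2 (0.32), Birc5, the passenger protein survivin (0.26), Tpx2 (0.25) and Ccna2 (0.24) were called higher, but each lost its call when any 1 of the 6 MLL/AF9 libraries was left out of the fit, with edgeR adjusted p-values up to 0.097, 0.135, 0.105 and 0.089, and 2 or 3 members were then called. The log2 differences moved down as well, to 0.18 for Birc5 and 0.17 for Tpx2. With the CALM/AF10 lines fitted alone the members' median went from 0.06 to -0.05, and 1 member was called higher and 2 lower. Birc5 also lost its call without CALM/AF10 line 2 library 3, and Ccnb2 without that or CALM/AF10 line 1 library 2. Ccnb1 (-0.01), Cdk1 (-0.10), Plk1 (0.04) and Top2a (0.12) did not pass.

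More members were called between the MLL/AF9 lines, whose libraries also differed in composition. Gm10800 took 21430 to 24440 TPM in line 2 and 945 to 1232 in line 1. Mitochondrial reads were 8.10 to 8.70% against 4.15 to 4.33%, and noncoding transcripts took 21.6 to 22.6% against 16.5 to 17.7% of the members' reads. The mean length of the transcript a read was assigned to was 3959 to 3988 bases in line 2 and 3264 to 3273 in line 1. The 8 stromal and endothelial markers summed to 158 to 166 TPM in line 2 and 45.0 to 47.8 in line 1. The part of these in the differences that follow was not tested.

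By read counts, 2 members were called higher and 27 lower in MLL/AF9 line 2 than in line 1 (82.9%), with a background of 56.6% of genes called, 25.9% higher and 30.7% lower, and a median of -0.59 against 0.08 over all genes. Nusap1 was at 106, 113 and 118 CPM in line 1 and at 25.4, 26.3 and 29.3 CPM in line 2 (-2.02, SE 0.09, edgeR adjusted p = 5.64e-13). Ube2c was at 203, 193 and 219 CPM and at 54.8, 59.2 and 49.0 CPM (-1.87, SE 0.07, edgeR adjusted p = 1.36e-13). Neither gene had overlapping libraries. Ccna2 was at 205, 218 and 218 CPM in line 1 and at 61.4, 62.2 and 61.0 CPM in line 2 (-1.76, SE 0.07, edgeR adjusted p = 1.88e-13), and Cdk1 at 69.3, 69.3 and 70.0 CPM and at 27.2, 21.1 and 21.9 CPM (-1.53, SE 0.10, edgeR adjusted p = 1.51e-10). Plk1 was at 121, 108 and 119 CPM and at 45.0, 46.3 and 47.0 CPM (-1.29, edgeR adjusted p = 8.26e-11). Line 2 was lower in every library for these 3 as well.

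The libraries did not overlap for 30 genes that were lower and 3 that were higher in CPM (background 35.7% and 32.1%).

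On the TPM scale, which divides each count by transcript length, the picture was different. By limma on TPM, 9 members were higher and 13 lower, with a median of -0.01, while the median of all genes was itself shifted by 0.42 and 42.2% of all genes were called higher and 14.7% lower. Relative to that shift the members' median was -0.42, and relative to all genes by read counts it was -0.67. In TPM the libraries did not overlap for 10 genes that were higher and 14 that were lower (background 50.2% and 15.2%). With TPM centred on the median, 2 were higher and 18 lower (background 20.3% and 28.7%). With reads of coding transcripts only, 4 were higher and 22 lower (background 24.8% and 27.1%). Under all 4 of these settings Birc5, Ccna2, Ccnb2, Cdc20, Cdca8, Cdk1, Cenpa, Kif20a, Mad2l1, Nusap1, Plk1 and Ube2c were lower in line 2 and Anln was higher (97.6, 84.4 and 88.3 CPM in line 1, 107, 105 and 102 CPM in line 2). Aurkb, Bub1 and Hmmr were called lower by reads and higher by TPM. Bub1b, Cdc25b, Kif2c, Nek2, Prc1 and Tpx2, called lower by reads, had positive TPM differences that did not pass, and the Ect2 difference changed sign with reads of coding transcripts only. For Cdk1 a coding transcript of 1253 bases was at 18.1 ± 0.903 TPM in line 1 and 4.27 ± 1.20 TPM in line 2 (SD, n = 3), and a retained-intron transcript of 475 bases was at 86.8 ± 6.81 and 32.8 ± 6.57 TPM. Other Cdk1 transcripts had higher means in line 2. A retained-intron transcript of 378 bases was at 15.2 ± 2.2 and 18.4 ± 15.9 TPM, and a coding transcript of 695 bases at 1.7 ± 0.41 and 4.4 ± 3.1 TPM. Coding transcripts took 47.2% of the Cdk1 reads in line 1 and 49.96% in line 2. Across the 35 genes, which share the same libraries and are not independent replicates, the change by reads had a Spearman correlation of 0.62 with transcript length, where it was 0.07 between the CALM/AF10 lines. The 17 genes with transcripts shorter than the median of 2508 bases had a median change of -1.14 and the 17 longer ones -0.30.

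**Figure D4:**
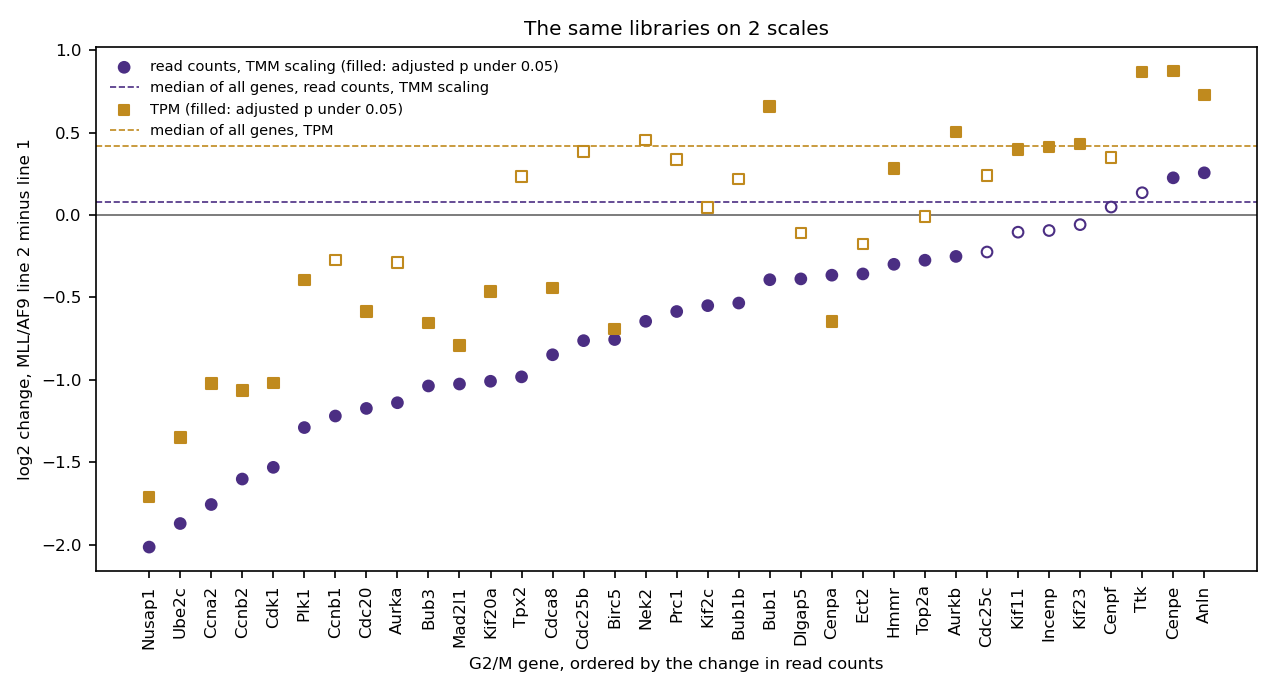
Difference of MLL/AF9 line 2 minus line 1 for each of the 35 genes, on the scale of read counts (edgeR, log2) and on that of log2(TPM + 1). Filled symbols passed the test and dashed lines mark the median of all genes. By counts 27 genes are called lower and 2 higher, and by TPM 13 and 9, several genes changing sign, with the median of all genes at 0.08 and 0.42.

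Between the fusions, with reads summed per line and 2 lines on each side, no member was called in MLL/AF9 against CALM/AF10 lines (background 2.85% of 19040 genes, 1.06% higher and 1.79% lower). DESeq2 called 0 members as well, and 1 had an unadjusted p under 0.05 in edgeR. The differences ran from -1.04 for Ube2c to 0.13 for Nek2, with a median of -0.39 against 0.03 over all genes. Nusap1 stood at -0.96, Kif23 at -0.94 (edgeR adjusted p = 0.318), Plk1 at -0.82, Cdk1 at -0.73 and Top2a at -0.08. Without MLL/AF9 line 1, the log2 differences were -1.31 for Ccnb1, -1.82 for Cdk1 and -1.73 for Plk1. In that fit 1 MLL/AF9 line stands against 2 CALM/AF10 lines, so no count of calls is given. The spread then comes from the CALM/AF10 lines alone, and the lone line is assumed to vary like them.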

How the data were processed

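The members and gene lists were chosen with earlier results of these data known. The time-course values are TPM per gene as deposited, in 1 table for each cell type. Columns carry no replicate number, so samples are called a, b and c. The files of the lines give estimated counts and TPM of every transcript, per the file headers. The authors' deposited junction tables give PSI in percent, the log2 ratio and its q-value. Their mean raw count, deposited as a group average, serves as a score of evidence. STAR and mm10 are named in the submitters' processing notes. The quantifier is not given in the sources used here. Per the labels' protocols, total RNA went into Ovation kit libraries.

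Genes with TPM of 1 or more in at least 3 fitted samples were tested on log2(TPM + 1), pseudocount 1, with limma 3.58.1 (mean-variance trend). Estimated counts were summed per gene with GENCODE M21 (98294 of 99567 transcripts matched, the rest, 0.709 to 1.12% of reads, being dropped), rounded, and tested with edgeR 4.0.16 quasi-likelihood after TMM, all 12 line samples in 1 fit. MLL/AF9 against CALM/AF10 used sums per line. DESeq2 1.42.0 was an alternative for counts. P-values were Benjamini-Hochberg adjusted over all genes, threshold 0.05. Both fits were tested on simulated data. Named genes were the members called (at most 4 a role group by size) with Ccnb1, Cdk1, Plk1 and Top2a always given, and at most 3 called genes a pathway list. Members described outside that rule were chosen after their values were seen. All pairs of line libraries of a group differed beyond sampling noise. No 2 time-course columns were identical, and without depth their sampling noise was not assessed.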

Additional observations from a re-analysis of the deposited data

Results flagged for a closer look

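The change under RG3039 differed between CALM/AF10 cells and GMP, by limma's test of the difference itself (CALM/AF10 minus GMP, on the log2(TPM + 1) scale, adjusted over all genes), for 9 members at 6 h and 10 at 10 h. The shares of 25.7% and 28.6% were below the background of 38.5% and 38.7%. At 6 h the negative differences, of genes that rose in GMP, were Ccnb1 (-0.69), Kif20a (-0.64), Aurka (-0.42), Plk1 (-0.36) and Cdc20 (-0.30). The positive ones, of genes that fell in GMP, were Nusap1 (0.66), Ccnb2 (0.45), Kif11 (0.38) and Incenp (0.37). Their SEs ran from 0.07 to 0.13 and their limma adjusted p-values from 0.000653 to 0.0126. The call of Cdc20 was lost with median centring and with quantile normalization, and that of Plk1 with quantile normalization.

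At 10 h the differences were -0.36 for Aurka and -0.36 for Plk1, and positive for Nusap1 (0.79), Incenp (0.50), Cenpa (0.49), Kif23 (0.49), Cdc25b (0.46), Dlgap5 (0.46), Ccnb2 (0.42) and Kif11 (0.40). Limma adjusted p-values ran from 5.13e-05 to 0.0117. The call of Plk1 at 10 h was also lost with quantile normalization. Both times share the 0 h samples.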

How the results depend on the processing

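Of the 89 calls of named members, 49 kept their direction and their side of the threshold under every setting run. Members called moved by over 1.5 times as follows: with the 2 compared groups alone, 1 in CALM/AF10 cells at 6 h and 1 at 10 h; for 10 h minus 6 h in GMP, 2 with median centring and 3 without the filter; between CALM/AF10 lines, 3 with those lines alone and 2 with protein-coding reads; between fusions, 26 with 12 samples in 1 fit. That last fit took the libraries of a line as replicates of its fusion, which they are not. It called 53.2% of all genes, 25.4% higher and 27.8% lower. In the 150 bases before the start, the CHR letters stood for 9 of 28 genes (9.70% of all such windows). Among the named genes, directions reversed between MLL/AF9 lines for Aurkb (0.50), Kif2c (0.046), Nek2 (0.46), Prc1 (0.34) and Tpx2 (0.24) in limma on TPM, Aurkb (0.031) with centred TPM, and Ect2 (0.18) with protein-coding reads. Among the other called members, Bub1 (0.66), Hmmr (0.28), Bub1b (0.22) and Cdc25b (0.39) reversed in limma on TPM, and Bub1 (0.19) with centred TPM. These 3 settings were chosen after seeing the data, and the cause of the reversals was not tested.

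Leaving out 1 sample at a time, members called ranged from 0 to 1 in CALM/AF10 cells at 6 h, 1 to 4 at 10 h and 0 to 1 for 10 h minus 6 h. In GMP they ranged from 11 to 14, 10 to 16 and 1 to 5. For the difference they ranged from 9 to 11 at 6 h and 10 to 12 at 10 h, between lines from 2 to 9 (CALM/AF10) and 27 to 29 (MLL/AF9), and between fusions from 0 to 18.

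No paired analysis was possible because the time-course columns carry no replicate number. With a replicate block, 6 and 29 members were called between the CALM/AF10 and the MLL/AF9 lines, as without it, and same-numbered libraries did not deviate together (correlations of -0.02 to 0.03). Depth is unknown for the TPM tables.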

Other observations

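Between the MLL/AF9 lines the other genes of the program went the way of the members by read counts: 20 of 113 were called higher in line 2 and 56 lower (67.3%, median -0.26), against a background of 56.6%, 25.9% higher and 30.7% lower. The spindle protein gene Ckap2l had a log2 difference of -1.71, Anapc13 of the anaphase-promoting complex -1.68, the CDK-binding subunit gene Cks2 -1.60 and Racgap1, of centralspindlin, -1.19. Plk2 was higher by 3.39, from a mean of 0.447 TPM in line 1 to 6.67 TPM in line 2. Between the CALM/AF10 lines 31 were called higher in line 2 and 7 lower (33.6%), with a background of 32.0%, 20.2% higher and 11.9% lower. The differences in library composition between lines apply to these values too, and their part was not tested.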
